A study of Mus musculus with 10 samples.

Results

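Genes encoding fetal and adult forms of the contractile proteins were followed in the left ventricle of mice after pressure overload. They were chosen by symbol, as the rows of the array table that name Myh6, Myh7, Myh7b, Acta1, Actc1, Tnni1 or Tnni3. Each of the 7 genes had 1 array probe, so 7 of the 26423 probes are described, and 7 of the 19942 distinct gene symbols. All 7 were kept by the filter on low values, which left 19976 probes. The Myh7 probe also carries the symbol LOC100862557, so its signal cannot be assigned to Myh7 alone. The samples were left ventricles of male C57BL/6J mice, 8 weeks old at surgery, which underwent transverse aortic banding (TAB), a constriction of the aorta that raises the pressure load on the left ventricle, or a sham operation. RNA was taken on days 3, 5, 7, 14 and 28, with 1 TAB and 1 sham sample on each day, 5 TAB and 5 sham samples in all. How many mice each sample holds is not given in the sources used here. The days therefore stand in for replicates. The main fits pair the TAB and sham sample of a day, so the p-values measure how their difference varied over the days. Sample variation and any change of the effect with day are both part of that spread. One characteristic of the day 14 TAB sample reads 15 days, while its title reads 14 days, which was used.

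Adult mouse ventricle runs mainly on the fast alpha myosin heavy chain (Myh6), cardiac alpha actin (Actc1) and cardiac troponin I (Tnni3). Fetal ventricle holds more of the slow beta myosin heavy chain (Myh7), skeletal alpha actin (Acta1) and slow skeletal troponin I (Tnni1). The return of fetal isoforms in a loaded adult heart is a classical mark of pathological hypertrophy, and thyroid hormone is a known regulator of the balance between both cardiac myosins. Myh7b is an ancestral myosin heavy chain gene of slow muscle and heart whose transcript largely does not yield protein in heart.

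Myh6 and Myh7 are neighbours on chromosome 14 of the RefSeq annotation of GRCm38.p6, with 0 protein-coding genes between them. Myh6, Myh7 and Myh7b each carry a microRNA within the gene, and the mature RefSeq sequences are shown because the myosin genes measured here are their hosts. The miRNAs themselves were not measured on this array. Capitals mark the seed, bases 2 to 8. miR-208a and miR-208b share 1 seed, and that of miR-499 differs in its last base. They lie at chr14:54949072-54949093, chr14:54975710-54975731 (both on the minus strand) and chr2:155622893-155622913 (plus strand).
mmu-miR-208a-3p: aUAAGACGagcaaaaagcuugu
mmu-miR-208b-3p: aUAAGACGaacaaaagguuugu
mmu-miR-499-5p: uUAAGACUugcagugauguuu

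The promoter windows of both myosin and both actin genes are shown because the fetal member of each pair was the one called. Each runs from 250 bases before to 50 bases after the RefSeq transcription start on GRCm38.p6, written along the minus strand on which all 4 genes lie. They are Myh7 at chr14:54994577-54994876, Myh6 at chr14:54966558-54966857, Acta1 at chr8:123894726-123895025 and Actc1 at chr2:114052826-114053125. A second Myh7 window in the table, which starts at another transcript, overlaps the first and is not shown. Capitals mark matches to M-CAT (CATTCC, or GGAATG on the other strand), the motif of TEAD factors, and to the CArG box, the motif of serum response factor.
Myh7: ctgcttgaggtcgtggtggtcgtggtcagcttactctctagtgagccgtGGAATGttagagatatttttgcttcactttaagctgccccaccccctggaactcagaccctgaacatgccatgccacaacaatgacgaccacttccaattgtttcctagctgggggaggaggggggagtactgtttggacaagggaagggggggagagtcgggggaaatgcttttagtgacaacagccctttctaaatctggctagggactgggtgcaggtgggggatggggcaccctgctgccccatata
Myh6: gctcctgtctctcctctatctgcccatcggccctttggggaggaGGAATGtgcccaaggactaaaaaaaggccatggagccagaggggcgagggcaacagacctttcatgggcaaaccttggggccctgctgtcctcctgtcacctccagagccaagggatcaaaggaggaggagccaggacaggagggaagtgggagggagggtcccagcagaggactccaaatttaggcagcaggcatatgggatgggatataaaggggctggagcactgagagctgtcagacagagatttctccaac
Acta1: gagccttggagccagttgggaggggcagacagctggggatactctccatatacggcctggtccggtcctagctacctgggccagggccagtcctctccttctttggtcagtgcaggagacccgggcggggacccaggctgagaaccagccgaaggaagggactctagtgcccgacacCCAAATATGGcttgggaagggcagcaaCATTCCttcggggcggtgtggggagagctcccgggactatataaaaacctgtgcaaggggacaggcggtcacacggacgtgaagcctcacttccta
Actc1: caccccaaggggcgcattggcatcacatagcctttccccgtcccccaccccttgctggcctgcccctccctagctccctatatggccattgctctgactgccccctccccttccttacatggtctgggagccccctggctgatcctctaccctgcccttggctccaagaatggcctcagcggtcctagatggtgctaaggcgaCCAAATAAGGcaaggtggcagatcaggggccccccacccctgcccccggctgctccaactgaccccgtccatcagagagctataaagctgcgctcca

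M-CAT was matched once in the Myh7, Myh6 and Acta1 windows shown, and the CArG box once in those of Acta1 and Actc1. Neither motif was matched in the second Myh7 window or in the windows of Myh7b, Tnni1 and Tnni3. M-CAT was matched in 14.66% of the 32851 promoter windows in the table, and the CArG box in 1.63%. In the Acta1 window, which held both, the matches did not share bases. Matches of this kind describe letters and not occupied sites. The TATA box letters (TATAAA) were searched on the written strand only, are not capitalized, and were matched in the Myh6, Acta1 and Actc1 windows, in neither Myh7 window and in 8.32% of all windows. Only these exact letters counted, so variants such as the atatata in the second Myh7 window were not matched, and a TATA box there was not tested.

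Intensities in the text are normalized values on a linear scale, whose brightness depends on the probe, so levels are not compared between genes, and the sum over a marker list weights its brightest probes most. Median raw intensity ran from 34 to 57 over the 10 arrays, and between 40.2% and 47.3% of spots carried the negative flag that was read as not found. All 7 probes were found on all 10 arrays. The deposited detection p-value was under 0.05 on all 10 arrays for 5 of the genes, on 3 arrays for Myh7b and on 2 for Tnni1, and all 5 of those readings came from sham samples. The TAB array of day 28 correlated more with sham arrays (median r = 0.972) than with the other TAB arrays (0.965), and without that day the log2 effects described below were 2.355 for Myh7 and 1.73 for Acta1 (limma, adjusted p = 0.0231 and 0.0123). Cardiomyocyte identity was checked with 13 kept marker genes, all found on every array. Of the 15 skeletal muscle markers, 7 were kept. Ckm, Casq1, Tnnt3, Tnni2 and Myl1 were found on all arrays, and limma called Myl1 higher in TAB, whereas Actn3 and Atp2a1, which define fast skeletal fibres, were found on no array. In bulk tissue, fewer cells of a type and less RNA per cell cannot be told apart. The summed level of the 13 cardiomyocyte markers ran from 192011 to 222321 in TAB and from 208723 to 230549 in sham samples. Of these 13 markers, 10 had a log2 difference below 0, with a median of -0.26, and limma called 1 higher and 1 lower, beside 7.47% and 6.73% of all probes. The summed level of the 7 kept fibroblast markers ran from 41544 to 57998 in TAB and from 31950 to 34181 in sham, and that of the 8 leukocyte markers from 4266 to 12038 and from 2387 to 3204, so neither overlapped. Limma called 4 of these 7 and 8 of these 8 higher and none lower. Their part in the results was not tested.

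Myh7 and Acta1, the fetal myosin and actin, rose in TAB. Myh7 was 5.36-fold and Acta1 3.39-fold above sham on average, and both were higher in TAB on 5 of 5 days. Their adult partners Myh6 and Actc1 were not called, and their TAB and sham values overlapped. No call was made for the other 3 genes. Tnni3 and Myh7b were lower in TAB on 5 of 5 days without passing the adjusted threshold, and Tnni1 was dim and without a steady direction.

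**Figure D1:**
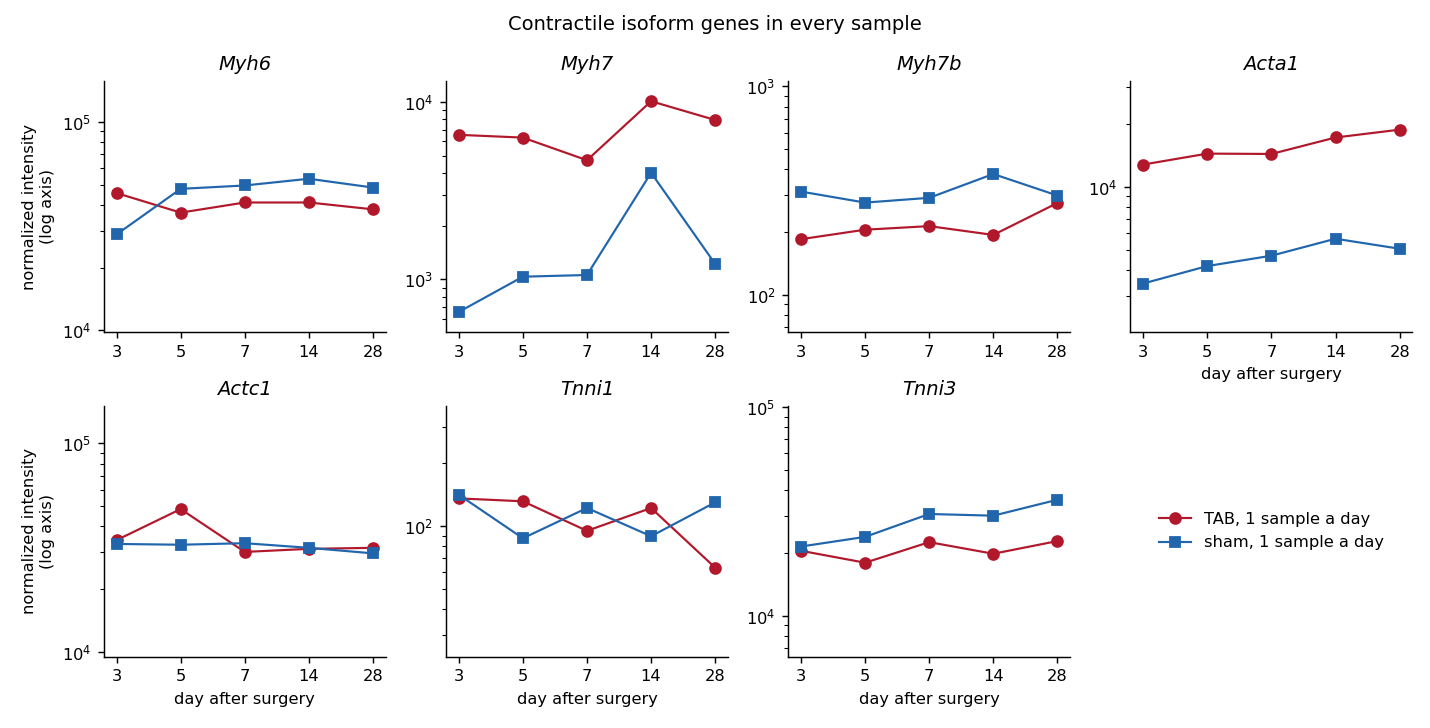
Normalized intensity (log axis, each panel spanning its own range) of the 7 genes in each of the 5 TAB and 5 sham samples by day after surgery, with days spaced evenly and 1 sample per point. Myh7 and Acta1 lie higher in all TAB samples than in any sham sample, while the TAB and sham lines of Myh6, Actc1 and Tnni1 cross.

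Myh7 encodes the slow beta myosin heavy chain. Its intensity in TAB, from day 3 to day 28, was 6542, 6310, 4702, 10122 and 7930. In sham samples of the same days it was 655, 1036, 1059, 3997 and 1222. All TAB values lay above all sham values, and the sham sample of day 14 was the closest to them. On the log2 scale the average difference was 2.42 ± 0.28 (SE, 5 days, limma, adjusted p = 0.0152), a fold of 5.36 with a 95% interval of 3.35 to 8.60. It was larger than that of 99.5% of all kept probes.

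The day 14 sham sample stood apart from the other 4 in Myh7 and in several other genes, which were picked after their values were seen. Nppa, which encodes atrial natriuretic peptide, read 16153 there and between 6809 and 9063 in the other sham samples. Nppb, which encodes B-type natriuretic peptide, read 15606 there and between 3016 and 6704 elsewhere. Egr1, an immediate early transcription factor, read 10503 against 649 to 2247, and Fos, another, 1160 against 129 to 262. The atrial light chain Myl7 read 3870 against 1867 to 2530, and Sln, the atrial sarcolipin, 1765 against 659 to 1048. Myl4, another atrial light chain, was only slightly above, with 4360 against 1755 to 3725. Of the 8 kept atrial markers, 7 were highest among sham samples on day 14, beside 21.3% of all kept probes and 10 of 21 kept regulators of the isoform balance, and Bmp10, at 17.9 against 10.7 to 45.9, was not. Of the 12654 probes found on all arrays, 15 were more than 2-fold above all other sham samples in this sample, and Myh7 was the 4th of them. The same count was 1 to 10 for the other 4 sham samples. On the low side, 43 probes were more than 2-fold below all other sham samples on day 14, and 210 on day 28. The day 3 sham sample was the lowest sham sample in Myh7, Myh6, Acta1 and Tnni3. Relative to the sham median its log2 values were -0.69, -0.75, -0.44 and -0.49. It was not the lowest in Myh7b, Actc1 or Tnni1.

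The Myh7 call was lost without day 3 (2.20, limma, adjusted p = 0.067), without day 5 (2.38, 0.0643) and without day 7 (2.49, 0.0703). Without day 14 the effect was 2.69 ± 0.22 (SE, 4 days, limma, adjusted p = 0.0357), and with only the day 14 sham sample left out and no day block it was 2.83 ± 0.25 (SE, limma, adjusted p = 0.000958). Measured against the other 4 sham samples, the day 14 TAB sample was 10.46-fold higher in Myh7, in place of 2.53-fold against its own sham. Those 4 include the low day 3 sample. Whether the natriuretic, immediate early or atrial transcripts have a part in the Myh7 reading was not tested.

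**Figure D2:**
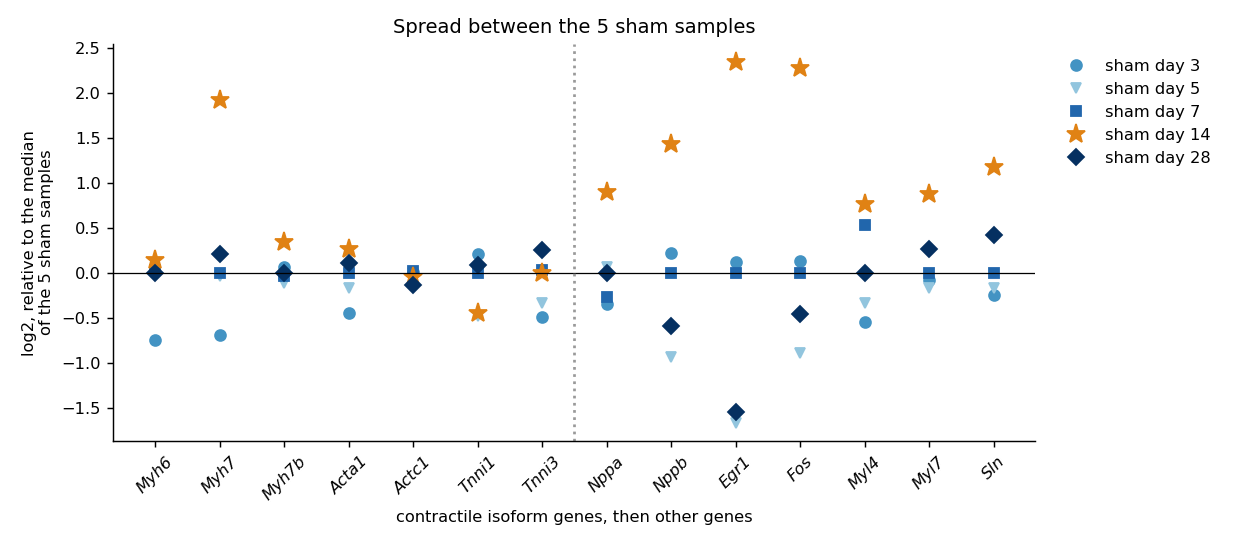
Log2 intensity of each sham sample relative to the median of the 5 sham samples, for the 7 contractile isoform genes (left of the dotted line) and for 7 genes picked after their values were seen (right). The day 14 sample (star) lies 1.92 above the median for Myh7, 1.44 for Nppb and 2.34 for Egr1, and the day 3 sample lies 0.75 below it for Myh6.

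Acta1 encodes skeletal alpha actin, the fetal partner of cardiac actin. It read 12803, 14449, 14393, 17263 and 18823 in TAB and 3443, 4175, 4680, 5645 and 5055 in sham samples, in order of day. The lowest TAB value was above the highest sham value, and no sample stood apart. The average log2 difference was 1.76 ± 0.11 (SE, 5 days, limma, adjusted p = 0.00548), a fold of 3.39 with a 95% interval of 2.84 to 4.06. Acta1 was also called in all 27 alternative fits, with adjusted p from 9.49e-06 to 0.0471.

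Both calls stand beside a background in which many probes changed. Over all kept probes, limma called 1492 (7.47%) higher and 1344 (6.73%) lower in TAB. The split between both directions moved with the scaling, to 1747 and 884 with median scaling alone, 1856 and 979 with normalization within each operation, and 3220 and 478 with arrays centred on cardiomyocyte markers. Of the 7 genes, 2 were called higher and 0 lower. TAB and sham values did not overlap, with TAB higher, for 8.78% of all probes and for 2 of the 7, Myh7 and Acta1. They did not overlap, with TAB lower, for 7.59% of all probes and for 1 of the 7, Myh7b.

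Myh6 encodes the adult alpha myosin heavy chain. Its intensity was 45586, 36722, 41076, 41076 and 38088 in TAB and 28869, 47754, 49562, 53380 and 48440 in sham samples, in order of day. The groups overlapped because the day 3 sham sample was lower than every TAB sample, whereas the other 4 sham samples were above every TAB sample. The average log2 difference was -0.14 ± 0.19 (SE, limma, adjusted p = 0.636), and its 95% interval runs from 0.661-fold to 1.24-fold. Without day 3 it was -0.34 (limma, adjusted p = 0.142), and without the day 3 sham sample alone -0.30 (limma, no day block, adjusted p = 0.0842). The highest raw value of this probe was 89.2% of the highest on the arrays, so no reading was at the ceiling. Whether signal this bright still scaled with the amount of RNA was not tested. A decrease to 0.661-fold lies within the interval.

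Actc1, cardiac alpha actin, read between 30185 and 48440 in TAB, with a median of 31579, and between 29708 and 33244 in sham samples, with a median of 32681. The groups overlapped, and the day 5 TAB sample was the high one. The average log2 difference was 0.11 ± 0.13 (SE, limma, adjusted p = 0.601), with a 95% interval from 0.862-fold to 1.36-fold.

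Tnni3, the adult cardiac troponin I, read 20488, 17958, 22538, 19827 and 22808 in TAB and 21474, 23884, 30753, 30185 and 35992 in sham samples on the same days. TAB was lower on each day, although the sham sample of day 3 lay within the range of TAB. The average log2 difference was -0.44 ± 0.13 (SE, limma, adjusted p = 0.0646), a fold of 0.738 with a 95% interval of 0.598 to 0.91. It was under the threshold in 5 of 27 alternative fits, among them those restricted to brighter probes (adjusted p = 0.0249 and 0.0206). With arrays centred on cardiomyocyte markers it was -0.19 (adjusted p = 0.393), a scaling that moved the median of all probes from -0.05 to 0.20.

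Tnni1, the fetal slow skeletal troponin I, read between 63.2 and 136 in TAB and between 87.5 and 141.5 in sham samples, and the median was 122 in both groups. The groups overlapped. Limma did not call it (adjusted p = 0.85). With detection p-values under 0.05 on 2 of 10 arrays, a change of this gene was hardly measurable.

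Myh7b read 185, 205.5, 214, 194 and 276 in TAB and 313, 277, 292, 380.1 and 300 in sham samples, in order of day. No TAB value reached the lowest sham value, although the day 28 TAB sample missed it by only a small margin. Limma did not call it (adjusted p = 0.0601). The adjusted p was under the threshold in 15 of 27 alternative fits, and ran from 0.00576 to 0.223 over all of them. Its call thus hung on the fit, and among the fits it passed was the one without the day as a block (adjusted p = 0.0214). The 3 arrays with a detection p-value under 0.05 were the sham samples of days 7, 14 and 28, so the TAB level is not set apart from background by that measure and neither a fold nor a log2 difference is given.

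**Figure D3:**
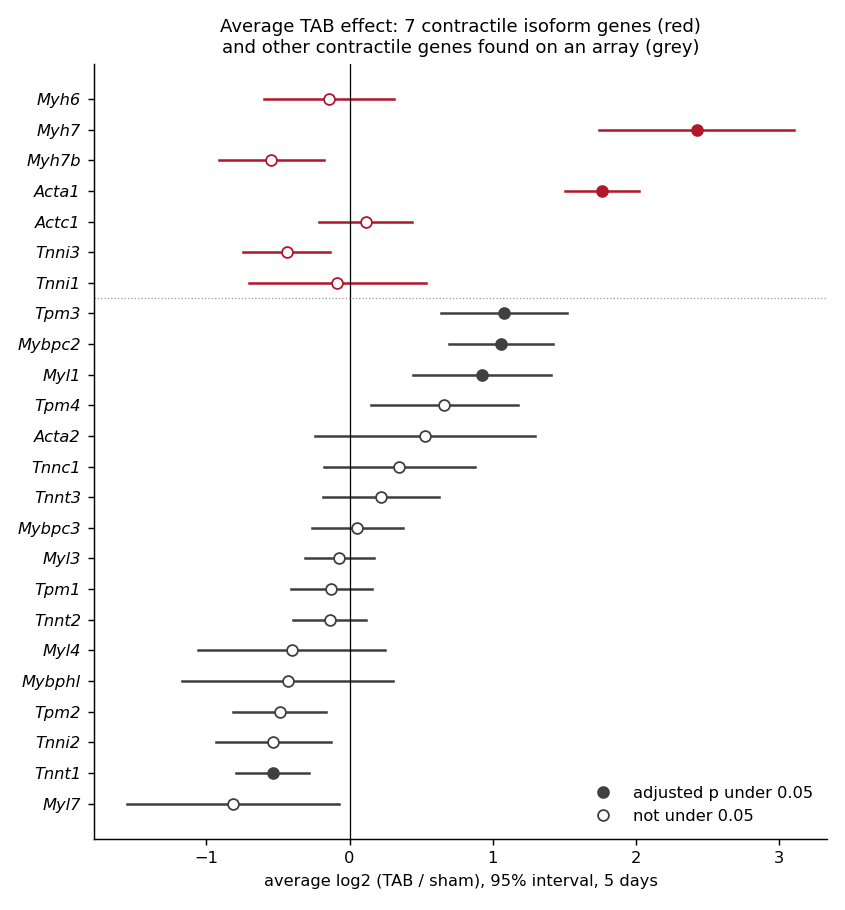
Average log2 ratio of TAB over sham with its 95% interval from limma over the 5 days, for the 7 contractile isoform genes (red) and for the other contractile genes found on the arrays (grey), without Myl2, which was at the scanner ceiling. Myh7b and Tnni1 had no TAB array with a detection p-value under 0.05, so their points set no size. Filled points passed an adjusted p of 0.05, and these are Myh7 and Acta1 in red and Tpm3, Mybpc2, Myl1 and Tnnt1 in grey.

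Day by day, TAB was compared with the sham sample of the same day by a rule after the study's, a log2 ratio beyond 2 SDs of all ratios of that day. The SD was taken over all 19976 kept probes. Over 1 probe per gene, as the study chose them, the thresholds were slightly higher and the calls of the 7 genes were the same. With 1 sample on each side this is a description without a test. The rule took 3.07% of probes as higher and 2.33% as lower on day 3, 3.77% and 1.69% on day 5, 3.71% and 1.77% on day 7, 3.29% and 2.37% on day 14, and 3.36% and 2.55% on day 28. Of the 35 readings of the 7 genes, 7 were past it on the high side and 0 on the low side. Myh7 was past it on days 3, 5, 7 and 28, with log2 ratios of 3.32, 2.61, 2.15 and 2.70, and short of it on day 14 with 1.34 against a threshold of 1.46. Acta1 was past it on days 3, 14 and 28 with 1.90, 1.61 and 1.90, and just short on days 5 and 7 with 1.79 and 1.62 against 1.87 and 1.71. The ratio of Acta1 was thus nearly constant, between 1.61 and 1.90, and the threshold moved around it. With a fixed log2 ratio of at least 1, which 8.53% of all readings passed on the high side and 7.57% on the low side, all 10 readings of Myh7 and Acta1 were past.

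**Figure D4:**
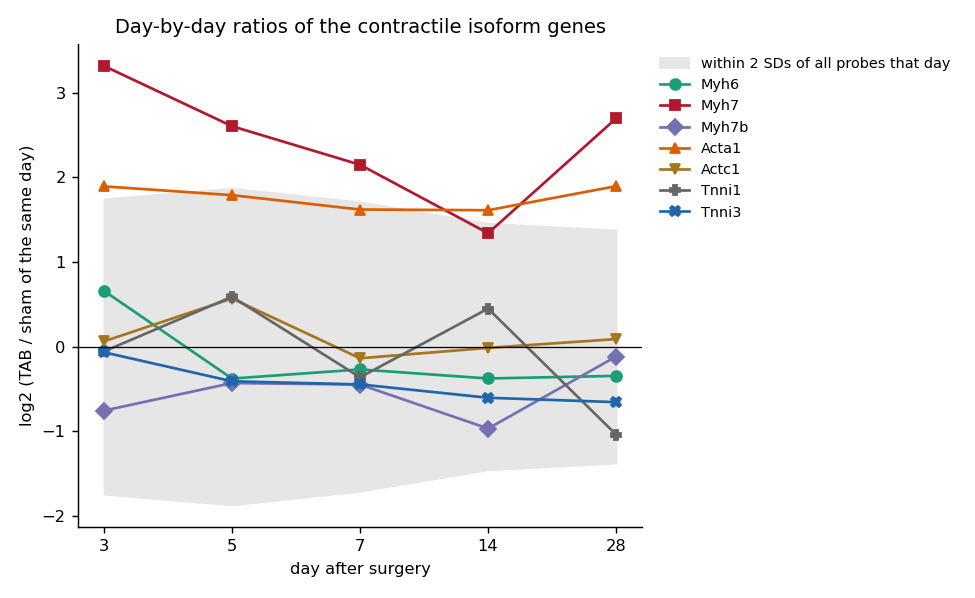
Log2 ratio of TAB over the sham sample of the same day for the 7 genes, with days spaced evenly and a grey band within 2 SDs of all probes on each day. Myh7 leaves the band on days 3, 5, 7 and 28 and Acta1 on days 3, 14 and 28, and the other 5 genes stay within it.

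To compare earlier with later days, a split made here, the difference of the TAB effect between days 14 and 28 and days 3, 5 and 7 was tested. None of the 7 genes was called. Myh7 had an early effect of 2.69 and a late effect of 2.02, a difference of -0.67 ± 0.55 (SE, limma, adjusted p = 0.662). Acta1 had 1.77 and 1.76, a difference of -0.01 ± 0.22 (SE, limma, adjusted p = 0.988). For Tnni3 the effects were -0.31 and -0.63 (limma, adjusted p = 0.601), and for Myh6 0.00 and -0.36 (limma, adjusted p = 0.729). The 95% interval of the Myh7 difference spans -2.08 to 0.73, so a sizeable change between stages could not be seen with 5 days. Leaving out day 14 brought the Myh7 difference to 0.006, and leaving out day 3 brought it to -0.36 (limma, adjusted p = 0.814). Over all probes 0 (0.0%) were called by limma, 2086 had an unadjusted p under 0.05, and limma with trend and robust settings called 35. With the day 14 sham sample left out and no day block, 174 probes were called higher and 21 lower in this contrast, and none of the 7 genes was among them.

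Taking the ratio of 2 isoforms within a sample removes what acts on both alike, such as array scaling. Relative to sham of the same day, Myh7 over Myh6 was 6.32-, 7.92-, 5.36-, 3.29- and 8.26-fold higher in order of day. The mean shift was 2.57 ± 0.54 (SD, 5 days) on the log2 scale. The same ratio varied among sham samples with an SD of 0.78 and among TAB samples with 0.44, and the lowest TAB sample lay 0.61 above the highest sham sample, that of day 14. For Acta1 over Actc1 the mean shift was 1.65 ± 0.25 (SD, 5 days), with folds from 2.33 on day 5 to 3.56 on day 3, and the lowest TAB sample lay 0.74 above the highest sham sample. For Tnni1 over Tnni3 the TAB and sham samples overlapped, and no shift is given because Tnni1 had no TAB array with a detection p-value under 0.05.

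**Figure D5:**
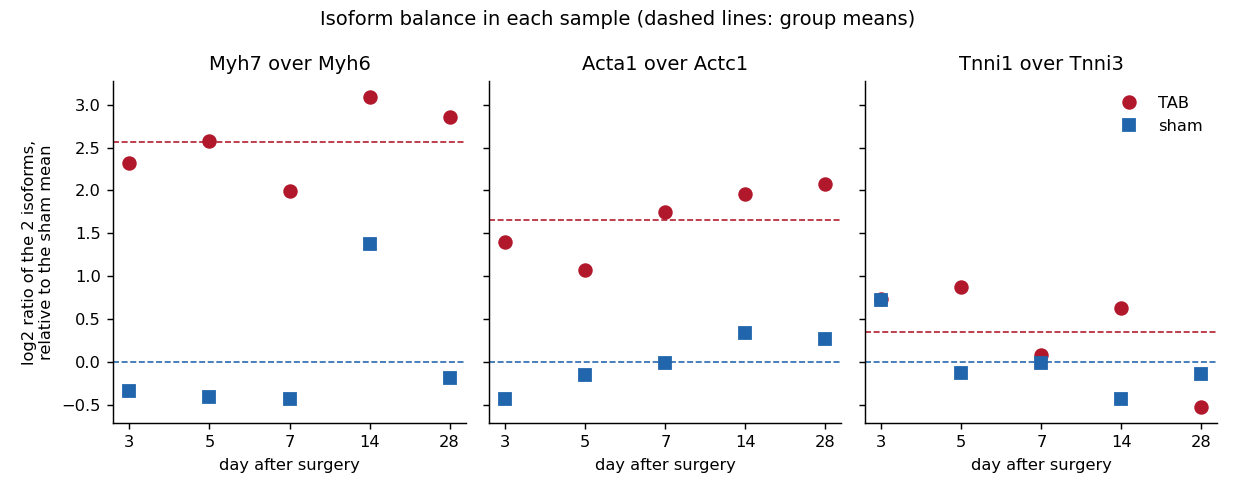
Log2 ratio of the fetal over the adult isoform in each sample, relative to the mean of the 5 sham samples, for the myosin, actin and troponin I pairs, with group means as dashed lines. TAB samples lie above all sham samples for Myh7 over Myh6 and for Acta1 over Actc1, with the day 14 sham sample nearest in the former, and both groups overlap for Tnni1 over Tnni3.

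The other contractile isoforms were described from a list of 29 genes, of which 20 were kept. Limma called 3 higher and 1 lower, with a median log2 difference of -0.10 against -0.05 over all probes, of which 7.47% were called higher and 6.73% lower. The 3 higher calls fell to 0 with probes below 1 set to 1 and without day 3, 5, 7 or 14, and the lower call was lost in the same fits and without day 28. Tpm3, a slow tropomyosin also expressed outside muscle, rose by 1.08 ± 0.18 (SE, limma, adjusted p = 0.0255). Mybpc2, the fast skeletal myosin binding protein C, rose by 1.06 ± 0.15 (SE, limma, adjusted p = 0.0196), and Myl1, the fast skeletal essential light chain, by 0.92 ± 0.20 (SE, limma, adjusted p = 0.0364). Tnnt1, the slow skeletal troponin T, fell by 0.54 ± 0.11 (SE, limma, adjusted p = 0.0309), a call lost with median scaling alone and with arrays centred on cardiomyocyte markers.

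The genes that dominate the ventricular sarcomere were not called. Log2 differences were -0.07 for the ventricular light chain Myl3, -0.14 for cardiac troponin T (Tnnt2), 0.35 for cardiac troponin C (Tnnc1), -0.13 for the main cardiac tropomyosin (Tpm1) and 0.05 for cardiac myosin binding protein C (Mybpc3), and 4 of these 5 stayed within 0.14 of 0. Those of Myl3, Tnnt2 and Tpm1 turned positive with arrays centred on cardiomyocyte markers. For Tnnc1 the day 5 sham sample read 12609, against 28547 to 31579 in the other sham samples and 30788 to 35563 in TAB. The ventricular regulatory light chain Myl2 was at the ceiling of the scanner on nearly all arrays and gives no difference. The atrial light chains Myl7 and Myl4, which also belong to the fetal ventricle, had log2 differences of -0.81 ± 0.31 (SE, limma, adjusted p = 0.121) and -0.40 ± 0.27 (SE, limma, adjusted p = 0.343). The gap was widest on day 14, whose sham sample stood apart, with 820 in TAB against 3870 for Myl7 and 1480.5 against 4360 for Myl4. Myl7 was lower in TAB on the other days as well, whereas Myl4 was slightly higher in TAB on days 3 and 5. Tpm2 and Tpm4 had -0.49 (adjusted p = 0.0598) and 0.66 (adjusted p = 0.0823).

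Regulators known to act on the isoform balance were taken from a list of 23 genes, of which 21 were kept. Limma called 2 higher and 3 lower, with a median of -0.03, beside 7.47% and 6.73% of all probes, and 4 of these 5 were dim. Without day 3, 5 or 7 these counts were 0 and 0. Thrb, the thyroid hormone receptor beta, fell by 0.63 ± 0.13 (SE, limma, adjusted p = 0.035), from between 133 and 171 in sham to between 83.2 and 124 in TAB. Rxrg, a retinoid X receptor and partner of thyroid hormone receptors, fell by 0.78 ± 0.17 (SE, limma, adjusted p = 0.0358). Thra, the receptor alpha, was found on 3 sham arrays and no TAB array and read between 10.5 and 17.2 in TAB and between 19 and 43.8 in sham samples (limma, adjusted p = 0.0185), so no fold is given. Dio2, the deiodinase that activates thyroid hormone, read between 88.3 and 222 in TAB and between 15.4 and 44.6 in sham samples (limma, adjusted p = 0.0139). Dio3, which inactivates it, read between 26.2 and 66.4 in TAB and between 16.6 and 45.9 in sham samples, which overlapped (limma, adjusted p = 0.0383). Both deiodinases were found on all 5 TAB arrays but on only 2 sham arrays, so the sham level is mostly that of spots not found and no fold is given. Dio3 kept its call in 8 of 23 alternative fits, and Thrb and Rxrg lost theirs with arrays centred on cardiomyocyte markers and with probes below 1 set to 1. Without day 14, as without day 3, 5 or 7, no regulator was called lower. The factors of the motifs above were not called. The TEAD genes Tead1, Tead2 and Tead3 had log2 differences of 0.01, 0.505 and 0.11 (limma, adjusted p = 0.968, 0.146 and 0.644), with a 95% interval from 0.003 to 1.007 for Tead2, and Tead4 was found on no array. Srf, the serum response factor, had -0.03 (adjusted p = 0.919), which turned positive under 3 of the 4 scalings.

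Likeness between genes was taken as Pearson r of log2 intensity over the 10 samples, among probes found on all arrays, and is given as a description. All points share the contrast between TAB and sham. The profile of Myh7 was most like those of Clic5 (r = 0.974), Nppa (0.958), Synpo2l (0.954), Mfsd6 (0.953) and 6430548M08Rik (0.947). That of Acta1 was most like A930005H10Rik (0.983), Elmo1 (0.976), Mical3 (0.976), Itga9 (0.973) and Cilp (0.972). Myh7 and Acta1 had r = 0.940 with each other. Myh6 and Myh7 had r = 0.021, and Acta1 and Actc1 had r = 0.213. Tnni3 was closest among the 7 to Myh7b (0.713) and Myh6 (0.639), and outside them to Gstz1 (0.961), Tmc7 (0.957), Wdfy3 (0.953), Polr2b (0.951) and Cog7 (0.950). Myh6 was most like Ccdc134 (0.938), Etnk1 (0.934), Larp4 (0.924), Ccdc132 (0.903) and Pias2 (0.897).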

How the data were processed

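Labelled RNA of 10 left-ventricle samples was hybridized to a 1-colour mouse whole genome array of oligonucleotide probes. The authors deposited raw intensity per probe, with the background already subtracted, a detection p-value whose computation is not given in the sources used here, and a flag per spot. The members and gene lists were chosen with earlier results of these data known. As in the study, arrays received median scaling, 6447 of 26423 probes under 1 in any sample were dropped, and a quantile step was applied before log2. Each rank received its median over all 10 arrays, whereas the wording of the study can be read as a median within each condition, which was run as an alternative, and the number of probes kept differs from that of the study. All remaining probes of a gene were kept. The average TAB effect and its late minus early difference were fitted with limma 3.58.1 in R 4.3.3 (lmFit and eBayes, trend and robust off) with day as a block, and p-values were adjusted by Benjamini-Hochberg over 19976 probes at 0.05. Figures were drawn with matplotlib 3.10.9. Day pairs TAB with sham by design. After subtracting group means, TAB and sham of a day correlated over all kept probes with r of 0.112, 0.001, 0.047, 0.016 and 0.016 on days 3, 5, 7, 14 and 28. By that measure the days share little beyond the label. For both called genes, however, the block lowered the SE, from 0.425 to 0.28 for Myh7 and from 0.159 to 0.106 for Acta1. Genes of the lists were represented by their brightest probe. All 7 genes are named, with list genes by role or call and the 5 probes most like a gene. Alternatives changed the scaling, offset, filters, probe choice, variance model, block and samples. The fits were tested on simulated data. Probe sequences were not used here, so signal shared between near-identical isoforms such as both alpha actins could not be checked.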

Additional observations from a re-analysis of the deposited data

Results flagged for a closer look

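Among the 14 sets of 5 values (7 genes, TAB and sham), 2 held a sample far from the others on the log2 scale, where chance gives about 1 in 20. The Myh6 value of the day 3 sham sample (28869) was below the other 4 (47754 to 53380), with a gap of 0.819 of the whole range. The Actc1 value of the day 5 TAB sample (48440) was above the other 4 (30185 to 34389), with a gap of 0.724 of the range.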

How the results depend on the processing

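Acta1 was called in all 27 alternative fits and Myh7 in 24 of them. Myh7 passed 0.05 no longer without day 3, 5 or 7 (adjusted p = 0.067, 0.0643 and 0.0703), where over all probes only 13, 33 and 21 were called higher and 0, 2 and 2 lower. Leaving out 1 day or 1 sample therefore gave between 1 and 2 genes called higher, and between 0 and 2 called lower. Called lower were 2 genes (Myh7b and Tnni3) with 50 added before log2, with the lowest tertile of probes left out, with probes found on all arrays only and with trend and robust settings, and 1 gene (Myh7b) with no replicate block. Without the block the log2 effect of Myh7 stays 2.42 by design, as each day has 1 TAB and 1 sham sample. Its SE rose from 0.28 to 0.425 (limma, adjusted p = 0.00604). The 7 day-by-day readings past 2 SDs became 4 with probes below 1 set to 1 and 10 with 50 added, with the cardiomyocyte centring or with a fixed log2 ratio of 1, and the low side became 1 with 50 added (Myh7b on day 14) or with a fixed log2 ratio of 1 (Tnni1 on day 28, where the TAB detection p-value was not under 0.05). The SDs over 1 probe per gene, added after the data were seen, gave 7 and 0 again.

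Centring on cardiomyocyte markers turned the effects of Myh6 to 0.11 and Tnni1 to 0.16. The late minus early difference of Myh7b, near 0, turned to -0.003 with median scaling alone, -0.17 with that centring and -0.006 with 50 added. Over the fits without 1 day or 1 sample, effects ran from -0.009 to 0.175 for Actc1 and from -0.25 to 0.15 for Tnni1. Late minus early differences ran from -1.53 to 0.18 for Myh7, -0.42 to 0.43 for Myh7b, -0.16 to 0.13 for Acta1, -0.28 to 0.075 for Actc1 and -1.10 to 0.39 for Tnni1. The shifts of Myh7 over Myh6 and of Acta1 over Actc1 moved by less than their SD under all alternatives tried. Among these, the cardiomyocyte centring cannot move a ratio within a sample. For Tnni1 over Tnni3 the SD exceeded the shift, so the same rule could hardly fail and shows nothing. Over 25 alternatives, 0 to 5 other contractile isoforms were called higher and 0 to 4 lower, and 0 to 3 and 0 to 6 of the regulators.

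Over all probes, calls higher and lower went from 1492 and 1344 to 263 and 106 with probes below 1 set to 1, 2366 and 2524 with 50 added, 2040 and 2325 without the lowest tertile, 2032 and 2345 on probes found on all arrays, 2290 and 2436 with trend and robust settings, 2016 and 1859 with no block, 126 and 58 without day 14 and 2355 and 2329 without the day 28 TAB sample. The fits that leave out 1 sample were added after the data were seen. With 5 arrays a group and no repeat of a day, precision is limited, and for Tnni1 and Myh7b also by signal close to background.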
